A study of Rattus norvegicus with 14 samples.

Results

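The genes described here are 9 proteases of the lysosome and 1 protease inhibitor that take part in, or restrain, the breakdown of thyroglobulin: the cathepsin genes Ctsa, Ctsb, Ctsc, Ctsd, Ctsh, Ctsk, Ctss and Ctsz, the legumain gene Lgmn, and Cst3, which encodes cystatin C. They were chosen by name for their place in this pathway, with earlier results of these data known, and 9 of the 10 are among the 16816 gene symbols of the count table; Ctsz was not analysed here. The counts came from RNA-seq of PCCL3 cells, a differentiated rat thyroid cell line grown with TSH. EV cells carried an empty vector, and PPFP cells were stably transfected with the Myc-tagged human PAX8-PPARG fusion protein of thyroid carcinoma. Each line received either the PPARG agonist pioglitazone at 1 μM or its vehicle DMSO for 16 hours, which gave 4 groups of 3 libraries from 3 independent experiments. Whether either line is a single clone is not given in the sources used here.

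Thyroid follicular cells store thyroglobulin outside the cell, take it up again and cut it in endosomes and lysosomes, which frees the thyroid hormones. Cathepsin D is an aspartic endopeptidase, cathepsin A is a serine carboxypeptidase that also protects lysosomal sialidase and β-galactosidase, and cathepsins B, C, H, K, S and Z are papain-like cysteine peptidases. Of these, C and H trim the amino end of proteins and Z the carboxyl end, whereas K and S act within the chain and B does both. Legumain cuts after asparagine and matures other lysosomal enzymes, and cystatin C is a secreted inhibitor of the papain-like cathepsins. The counts measure transcripts and not enzyme activity.

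Library totals lay between 23724703 and 35240176 counts, of which the 9 genes held between 0.224% and 0.363%. Pparg, whose row can take reads of the fusion transcript, had at least 1274 counts in each PPFP library and at most 88 in each EV library. Levels are given as CPM, the counts of a gene per 1000000 counts of its library, scaled by TMM over the 12 libraries, with libraries in the order of replicates 1, 2 and 3 and with means ± SD (n = 3). CPM does not correct for transcript length, so levels of different genes are not compared. The 9 thyrocyte marker genes were detected in every group, with summed levels between 10022 and 14662 CPM. Of the 11 macrophage markers with a row, 8 or 9 per group had at most 3 counts in every library, and Lyz2, Itgam, Cd163 and Mrc1 had a mean of 0 CPM in each of the 4 groups. Of the 6 fibroblast markers, 4 per group were at that floor, and the sum of all 6 lay between 20.4 and 34.5 CPM. In such bulk samples a change in the share of expressing cells and a change in RNA per cell cannot be told apart.

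Promoters of 9 of the 10 genes, Ctsb being the exception, were matched by symbol in RefSeq's annotation of the rat assembly GRCr8, and the 250 bases before the annotated start of transcription were read on the strand of the gene. The 4 sequences below belong to the gene with the largest fold change, Ctss, and to the 3 genes that were lower in PPFP cells in both comparisons with EV cells. They lie at chr2:185775146-185775395 (plus strand, Ctss), chr1:206968822-206969071 (minus strand, Ctsd), chr3:173988193-173988442 (plus strand, Ctsa) and chr3:156793938-156794187 (minus strand, Cst3). Capitals mark matches, on either strand, to the E-box CACGTG, to its longer palindrome TCACGTGA, which contains it, to the interferon response core TTTCNNTTTC, or to the PPARG-type direct repeat AGGTCANAGGTCA.
Ctss: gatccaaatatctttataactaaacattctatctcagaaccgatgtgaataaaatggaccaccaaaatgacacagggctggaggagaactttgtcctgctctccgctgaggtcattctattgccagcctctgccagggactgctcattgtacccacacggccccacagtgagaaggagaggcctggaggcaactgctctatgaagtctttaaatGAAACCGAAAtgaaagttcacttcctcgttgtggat
Ctsd: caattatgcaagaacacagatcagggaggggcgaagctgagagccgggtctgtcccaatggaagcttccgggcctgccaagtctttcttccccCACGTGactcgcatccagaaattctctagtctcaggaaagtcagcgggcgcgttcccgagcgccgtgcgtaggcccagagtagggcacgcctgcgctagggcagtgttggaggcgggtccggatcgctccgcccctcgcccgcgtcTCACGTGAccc
Ctsa: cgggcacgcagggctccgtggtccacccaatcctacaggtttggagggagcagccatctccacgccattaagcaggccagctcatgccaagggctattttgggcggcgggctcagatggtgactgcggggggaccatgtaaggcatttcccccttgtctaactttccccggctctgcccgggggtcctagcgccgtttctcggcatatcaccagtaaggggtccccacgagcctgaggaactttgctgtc
Cst3: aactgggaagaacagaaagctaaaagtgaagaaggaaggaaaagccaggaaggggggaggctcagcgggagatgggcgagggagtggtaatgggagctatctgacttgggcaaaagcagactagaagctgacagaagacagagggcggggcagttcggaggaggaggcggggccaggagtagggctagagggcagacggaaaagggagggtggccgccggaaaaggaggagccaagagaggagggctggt
The Ctsd window held CACGTG at 2 places, and the one nearer to the start lay within TCACGTGA. The Ctss window held 1 match to the interferon response core. The windows of the other 7 genes held no match to these letters, nor did any of the 9 to the direct repeat. Among 33469 rat promoters of the same length, CACGTG occurred in 5.59%, TCACGTGA in 0.657%, the interferon response core in 3.41% and the direct repeat in 0.0508%. A match is a string of letters and was not tested as a site.

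PPFP and EV cells were first compared without pioglitazone. Ctss, Ctsc and Ctsb were higher in PPFP cells and Ctsa, Ctsd and Cst3 were lower, while Ctsh and Lgmn did not pass the test. Thus 6 of the 8 genes tested had an adjusted p under 0.05 in edgeR's quasi-likelihood test after Benjamini-Hochberg adjustment, against 45.2% of all 10264 genes tested. In each direction there were 3, where 22.0% of all genes were called higher and 23.1% lower. Only Ctss of the 8 also passed a fold change of 2, as did 14.6% of all genes. The groups did not overlap for 6 of the 8 genes, as for 56.5% of all genes. The median log2 fold change of the 8 was 0.087, beside 0.00164 for all genes. Ctsk failed the filter on low counts, and Ctss passed it through its PPFP libraries, so that its presence among the tested genes already depended on a difference.

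**Figure D1:**
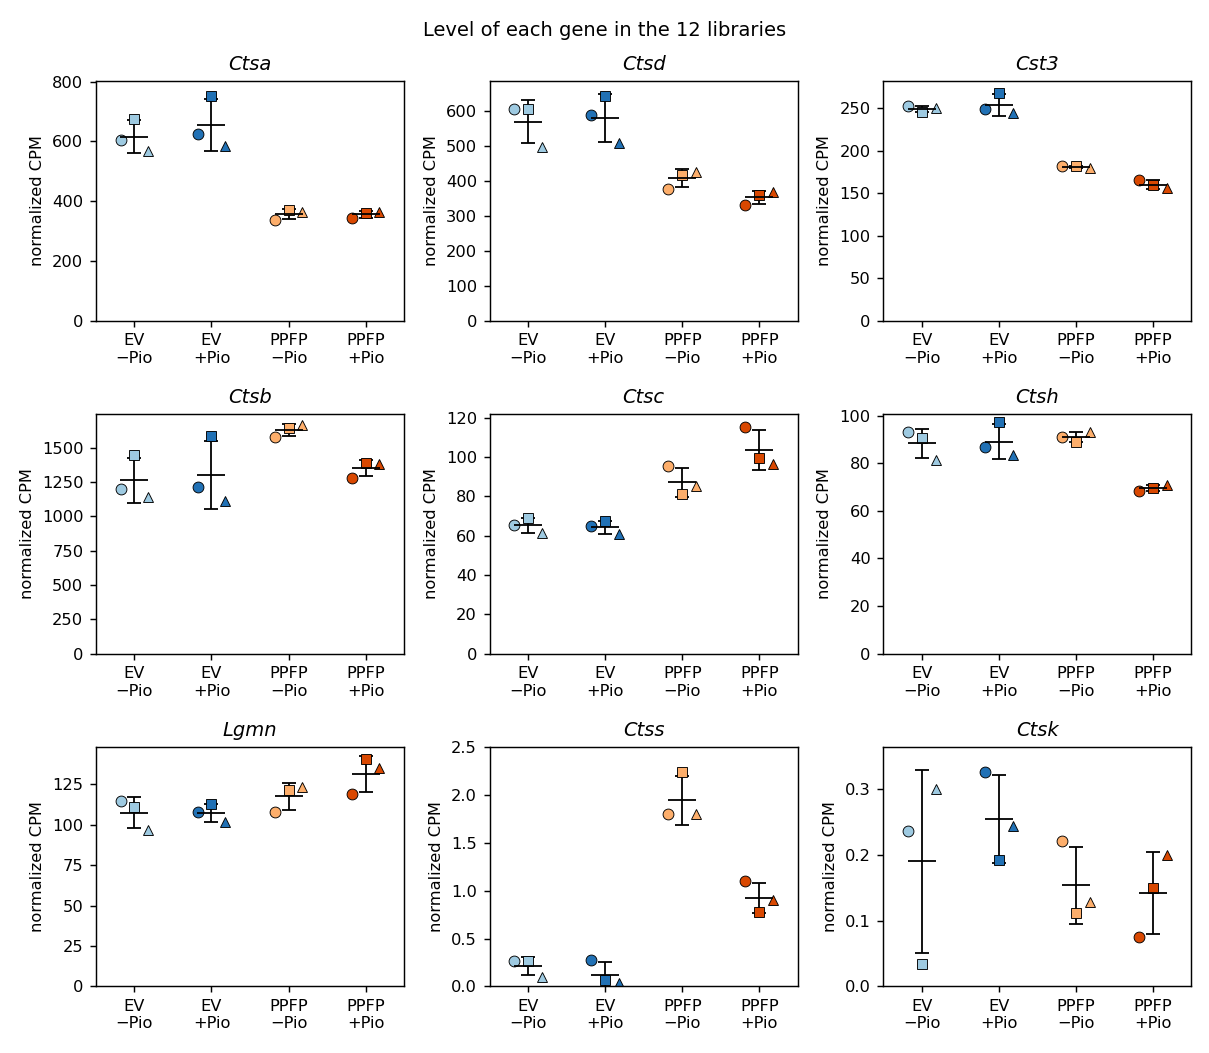
Level of each of the 9 genes with a row, in TMM-scaled CPM on linear axes that start at 0, in EV and PPFP cells with (+Pio) and without (−Pio) pioglitazone. Symbols are single libraries (circle, square and triangle for replicates 1, 2 and 3), and bars are means ± SD of 3 libraries. Ctsa, Ctsd and Cst3 sit lower in all PPFP libraries, Ctss and Ctsc sit higher, and Ctsk stays below 0.33 CPM throughout.

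Ctsd, the aspartic endopeptidase, had 604, 604 and 498 CPM in EV libraries and 378, 418 and 426 CPM in those of PPFP cells. All 3 PPFP libraries were below all 3 EV libraries. The log2 fold change was -0.48 (SE 0.104, adjusted p = 0.00732 by edgeR's quasi-likelihood test), a level 1.40-fold lower. Ctsa, the serine carboxypeptidase, had 604, 675 and 567 CPM in EV libraries and 338, 369 and 365 CPM in those of PPFP cells, again without overlap. It fell by 0.78 on the log2 scale (SE 0.093, adjusted p = 0.000446), which was 1.72-fold. Both calls held under every alternative run, with log2 fold changes between -0.864 and -0.714 for Ctsa and between -0.569 and -0.407 for Ctsd.

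Among the cysteine endopeptidases, Ctss had the largest change of the 8 genes and the fewest counts. Its libraries held 8, 8 and 3 counts in EV cells and 49, 60 and 42 counts in PPFP cells, or 0.213 ± 0.098 CPM against 1.95 ± 0.253 CPM. Every PPFP library exceeded every EV library at this depth, and the fitted difference was 9.0-fold (log2 3.17, SE 0.352, adjusted p = 0.000332 by edgeR's quasi-likelihood test). Ctss is best known from antigen-presenting cells. The summed macrophage markers were at 5.57 to 6.36 CPM in EV cells and at 4.30 to 5.45 CPM in those with PPFP, and most of that sum was Cd14 alone (5.70 ± 0.565 and 4.28 ± 0.661 CPM). Within the list Fcer1g, which encodes an Fc receptor chain, had 2 to 7 counts per EV library and 10 to 14 per PPFP library, and Aif1 had 1 to 3 and 4 to 7, so that both were higher in PPFP cells without overlap, as Ctss was. Cd68, a lysosomal membrane protein that also marks macrophages, was higher too (log2 fold change 0.86, SE 0.297, adjusted p = 0.0480 by edgeR's quasi-likelihood test). The part of such cells in the Ctss difference was not tested. With at least 10 counts required in every library, Ctss was no longer tested, and no gene of the 8 then passed the fold change of 2.

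Ctsb had 1201, 1443 and 1139 CPM in EV libraries and 1576, 1642 and 1662 CPM in those of PPFP cells. The PPFP libraries were higher without overlap, and the EV libraries varied more. The log2 fold change was 0.37 (SE 0.107, adjusted p = 0.0250 by edgeR's quasi-likelihood test), or 1.29-fold. Its adjusted p ranged from 0.0045 to 0.0895 over the alternatives. The call was lost without EV replicate 1 (adjusted p = 0.0895), without PPFP replicate 2 (0.0610) or replicate 3 (0.0727), and with library size alone in place of TMM (0.0650). Ctsk, a collagen-degrading cathepsin of osteoclasts that can also cut thyroglobulin, had between 1 and 12 counts in each of the 12 libraries, so that no difference was detectable at this depth.

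Ctsc, the dipeptidyl peptidase that activates serine proteases of immune cells, had 65.6, 68.9 and 61.4 CPM in EV libraries and 95.2, 81.0 and 85.0 CPM in those of PPFP cells. The groups were separate, and the log2 fold change was 0.42 (SE 0.092, adjusted p = 0.00783 by edgeR's quasi-likelihood test). Ctsh, an aminopeptidase, had 93.2, 90.7 and 81.4 CPM in EV libraries and 91.1, 89.0 and 93.1 CPM in those of PPFP cells, with overlapping groups and a log2 fold change of 0.04 (SE 0.081, adjusted p = 0.692). Lgmn had 115, 111 and 96.6 CPM in EV libraries and 108, 122 and 123 CPM in those of PPFP cells, which also overlapped (log2 fold change 0.13, SE 0.097, adjusted p = 0.308).

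Cst3 had 252, 245 and 250.2 CPM in EV libraries and 181, 181 and 179 CPM in those of PPFP cells. The libraries of a group were close together, and the groups were far apart relative to that spread. The log2 fold change was -0.46 (SE 0.069, adjusted p = 0.00125 by edgeR's quasi-likelihood test), or 1.38-fold lower, and the call held under every alternative. The inhibitor was thus lower where the papain-like enzymes Ctsb, Ctsc and Ctss were higher. The ratio of Ctsb to Cst3 counts within a library was 5.07 ± 0.718 in EV cells and 9.01 ± 0.297 in PPFP cells. It restates the rise of Ctsb and the fall of Cst3. With pioglitazone, where Ctsb did not pass the test between the cell lines, the ratio was 5.11 ± 0.706 and 8.45 ± 0.609. Without pioglitazone the ratio of Ctsd, which cystatin C does not inhibit, to Cst3 was 2.28 ± 0.257 and 2.25 ± 0.154. Ctsd and Cst3 fell by similar amounts (log2 -0.48 and -0.46). Ctsa, also not a papain-like enzyme, fell by more (-0.78), so the ratios do not set targets of cystatin C apart from other proteases. These ratios are descriptive, and their size depends on the lengths of the transcripts, so only their change between groups can be read.

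**Figure D2:**
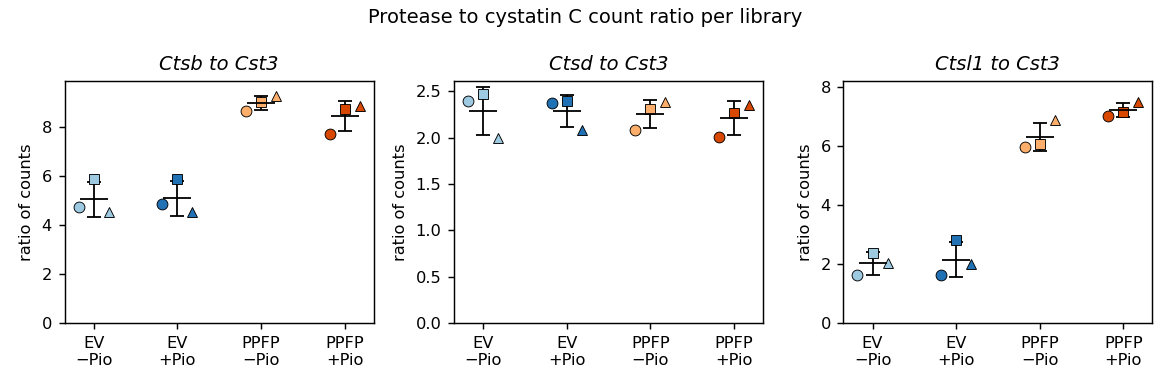
Ratio of Ctsb, Ctsd and Ctsl1 counts to Cst3 counts in each of the 12 libraries (symbols), with means ± SD of 3 libraries per group on linear axes that start at 0. The Ctsb ratio lies at 8.69 to 9.27 in PPFP cells without pioglitazone and at 4.55 to 5.89 in EV cells without it, whereas the Ctsd ratio stays between 1.99 and 2.47 in all groups.

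The second comparison was of the same cell lines in the presence of pioglitazone. Ctss, Ctsc and Lgmn were higher in PPFP cells, and Ctsa, Ctsd, Cst3 and Ctsh were lower. Of the 8 genes, 7 passed the adjusted p of 0.05, against 52.7% of 10291 genes. There were 3 higher and 4 lower, where 26.3% of all genes were higher and 26.4% lower. Only Ctss passed the fold change of 2, as did 19.7% of all genes, and 7 genes had groups without overlap, as did 62.9% of all genes. The median of the 8 genes was -0.134, beside 0.0121 for all genes.

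Ctsa had 624, 752 and 585 CPM in EV libraries and 343, 362 and 365 CPM in those of PPFP cells, a log2 fold change of -0.86 (SE 0.105, adjusted p = 0.000476 by edgeR's quasi-likelihood test). Ctsd had 589, 642 and 507 CPM against 331, 360 and 367 CPM (log2 fold change -0.70, SE 0.103, adjusted p = 0.00112). Cst3 had 249, 268 and 244 CPM against 165, 159 and 156 CPM (log2 fold change -0.65, SE 0.070, adjusted p = 0.000272). None of these 3 genes overlapped between the groups, and each of the 3 calls held under every alternative. Ctsc was at 64.6, 67.3 and 60.7 CPM in EV cells and at 115, 99.2 and 96.6 CPM in PPFP cells, 1.63-fold higher (log2 fold change 0.71, SE 0.086, adjusted p = 0.000446). Ctsh, which had not passed without the drug, was at 86.7, 97.4 and 83.4 CPM in EV cells and at 68.4, 69.8 and 70.8 CPM in PPFP cells. The PPFP libraries were all lower, with a log2 fold change of -0.34 (SE 0.078, adjusted p = 0.00873).

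Lgmn had 108, 113 and 102 CPM in EV libraries and 119, 140.5 and 135 CPM in those of PPFP cells with pioglitazone. The groups did not overlap, and the log2 fold change was 0.31 (SE 0.089, adjusted p = 0.0215 by edgeR's quasi-likelihood test), but the adjusted p ranged from 0.00668 to 0.163 over the alternatives. It was 0.0775 and 0.0584 without EV replicates 1 and 3, 0.115 and 0.0943 without PPFP replicates 2 and 3, 0.0556 with the replicate number as a block, and 0.163 with library size alone. Ctsb was the gene that did not pass, with 1209.7, 1584 and 1111 CPM against 1282, 1390.3 and 1381 CPM (log2 fold change 0.07, SE 0.136, adjusted p = 0.679). Ctss had 10, 2 and 1 counts in EV cells and 29, 21 and 27 counts in PPFP cells, a 6.88-fold difference (log2 2.78, SE 0.535, adjusted p = 0.00393). Here too Ctss passed the filter on low counts through its PPFP libraries only, so its call depended on the same difference, and it was not tested with at least 10 counts in every library. Without EV replicate 1, which held 10 counts, its log2 fold change was 4.09.

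**Figure D3:**
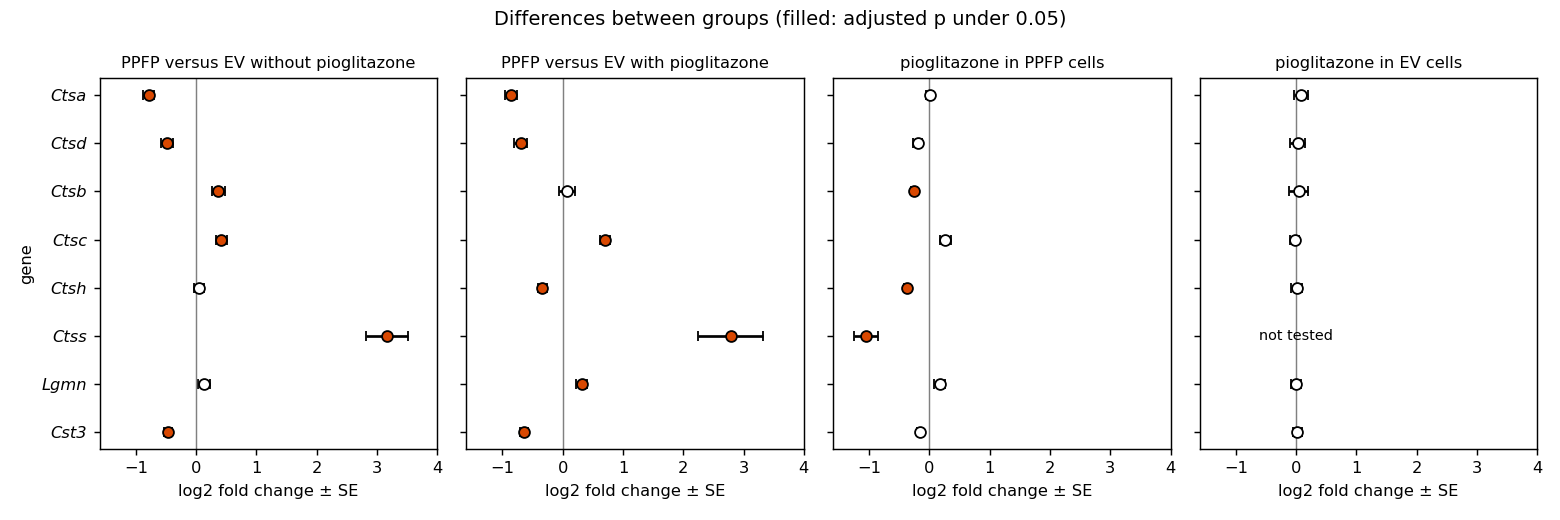
Log2 fold change ± SE of the 8 tested genes from edgeR's quasi-likelihood fit in the 4 pairwise comparisons, each of 3 libraries against 3. Filled symbols have an adjusted p under 0.05. Ctsa, Ctsd and Cst3 lie left of 0 in both comparisons of PPFP with EV cells, Ctss and Ctsc lie right of 0, and no symbol is filled for pioglitazone in EV cells.

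Pioglitazone was then compared with vehicle within PPFP cells. Ctss, Ctsh and Ctsb fell. None of the 8 genes rose in the unpaired test, and 5 did not pass it. The 3 calls stand beside 14.8% of 10064 genes, of which 7.63% rose and 7.13% fell. Ctss alone of the 8 also passed the fold change of 2, as did 2.42% of all genes. The median log2 fold change of the 8 genes was -0.18, beside 0.012 for all genes, and the groups did not overlap for 6 of them, as for 34.4% of all genes.

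Ctsh changed from 91.1, 89.0 and 93.1 CPM to 68.4, 69.8 and 70.8 CPM. It was lower in every treated library, by 0.38 on the log2 scale (log2 fold change -0.38, SE 0.052, adjusted p = 0.00581 by edgeR's quasi-likelihood test), and this call held under every alternative, with adjusted p between 2.95e-09 and 0.0408. Ctss changed from 49, 60 and 42 counts to 29, 21 and 27 counts, or from 1.95 ± 0.253 to 0.927 ± 0.159 CPM. It was 2.08-fold lower (log2 fold change -1.06, SE 0.199, adjusted p = 0.0164), yet its treated libraries, at 0.783 CPM or more, still exceeded all EV libraries, at 0.271 CPM or less. Ctsb changed from 1576, 1642 and 1662 CPM to 1282, 1390.3 and 1381 CPM (log2 fold change -0.26, SE 0.055, adjusted p = 0.0263), to a level within the range of the EV cells with pioglitazone. Both calls were lost when all 12 libraries shared one fit, with adjusted p of 0.0847 for Ctss and 0.236 for Ctsb. They were also lost without vehicle replicate 2 (Ctss 0.0647, Ctsb 0.0653), vehicle replicate 3 (0.0602, 0.107), pioglitazone replicate 2 (0.0830, 0.0737) or pioglitazone replicate 3 (0.0748, 0.0594). Over all alternatives the adjusted p of Ctsb was between 1.72e-06 and 0.236.

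The libraries of PPFP cells with the same number deviated together from their group means (correlations of 0.743, 0.464 and 0.432). Libraries 2 and 3 correlated to a like degree across numbers (0.535 and 0.35), so only the pairing of number 1 was clear. With the replicate number as a block 7 of the 8 genes passed, beside 51.6% of all genes. Of those 7, Ctsc and Lgmn were higher, where 27.7% of all genes rose, and Ctsb, Ctsd, Ctsh, Ctss and Cst3 were lower, where 23.9% of all genes fell. For Ctsc the ratios with to without pioglitazone within numbers 1, 2 and 3 were 0.28, 0.29 and 0.18 on the log2 scale. All 3 were positive, and its adjusted p was 9.88e-06 with the block and 0.106 without it in edgeR's quasi-likelihood test (0.346 at most over the alternatives). For Ctsd the paired log2 ratios were -0.19, -0.21 and -0.22, all negative and close together (adjusted p = 1.40e-05 with the block and 0.137 without, 0.371 at most). For Cst3 they were -0.13, -0.19 and -0.20 (adjusted p = 0.000465 with the block and 0.0534 without, 0.198 at most), and for Lgmn 0.14, 0.21 and 0.13 (0.000603 and 0.271, 0.569 at most). Ctsa had paired log2 ratios of 0.02, -0.03 and -0.0002 and passed neither fit (adjusted p = 0.858 with the block and 0.954 without). The blocked fit left 2 residual degrees of freedom.

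**Figure D4:**
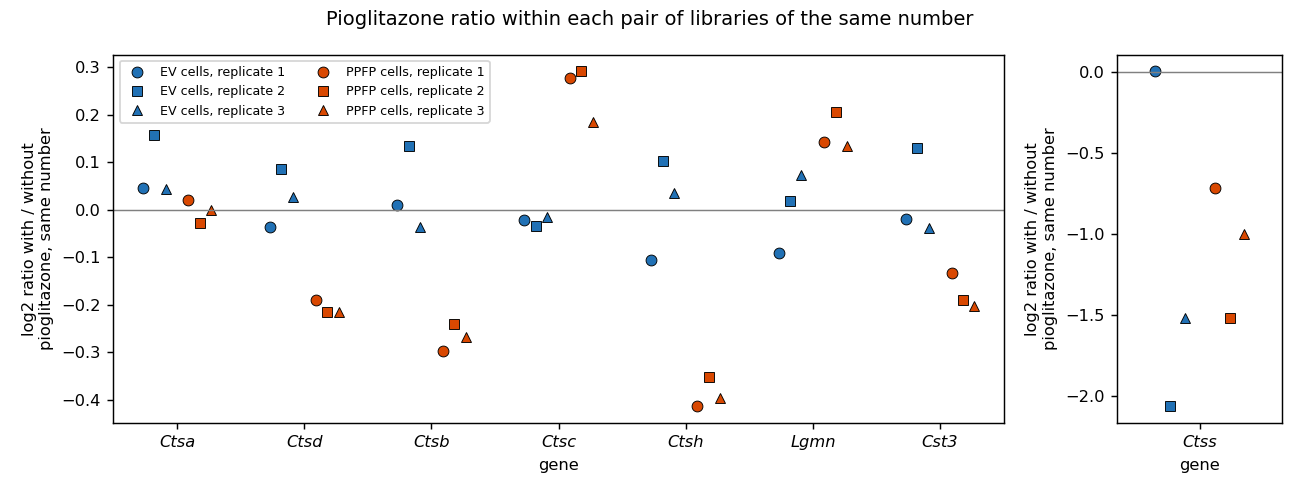
Log2 ratio of TMM-scaled CPM with to without pioglitazone for each pair of libraries with the same replicate number, in EV cells (blue) and PPFP cells (orange). Ctss is drawn on its own axis. In PPFP cells the 3 pairs of Ctsd, Ctsb, Ctsh and Cst3 lie below 0 and those of Ctsc and Lgmn above 0, while Ctsa pairs lie within 0.03 of 0.

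In EV cells, which lack the fusion protein, none of the 7 genes tested passed the test for pioglitazone. No gene of the whole table was called by edgeR's quasi-likelihood test (0% of 10146 genes), and 16 had an unadjusted p under 0.05, none of them among the 7. DESeq2 and the replicate block also called 0 of the 7. The log2 fold changes were 0.08 for Ctsa, 0.04 for Ctsb, 0.02 for Ctsd and Cst3, 0.01 for Ctsh, -0.004 for Lgmn and -0.03 for Ctsc, and all 7 overlapped between groups, where 1.48% of all genes did not. Ctss was not tested in EV cells, where its libraries held between 1 and 10 counts.

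Whether the response to pioglitazone differed between PPFP and EV cells was tested as an interaction over the 12 libraries. Without a block, 0 of the 8 genes passed edgeR's quasi-likelihood test, beside 2.64% of 10482 genes, and 0.925% of all genes also passed a fold change of 2. At an unadjusted p under 0.05 there were 2, Ctsh and Cst3, and DESeq2 called 1, Ctsh. The Ctsh interaction was -0.40 on the log2 scale (SE 0.104, adjusted p = 0.0751 by edgeR's quasi-likelihood test), and its adjusted p was 0.0082 in DESeq2 and between 0.000151 and 0.198 over all alternatives. With the replicate as a block within each cell line, 6 of the 8 genes passed, beside 34.3% of all genes. They were Ctsh (-0.40, adjusted p = 0.000151), Ctsb (-0.30, 0.000732), Ctsc (0.27, 0.000889), Ctsd (-0.23, 0.00186), Cst3 (-0.20, 0.00961) and Lgmn (0.16, 0.0279). With a replicate block shared by both cell lines, between which the numbers did not pair the libraries, 0 of the 8 passed and 338 of all genes did (3594 with the block within each line). The unblocked adjusted p of the last 5 were 0.550, 0.380, 0.605, 0.293 and 0.711. Ctsa and Ctss passed neither fit, and the sign for Ctss turned without EV replicate 1 with pioglitazone (log2 0.92).

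The order of the 4 groups differed among the genes. Ctsa, Ctsd and Cst3 were at 654 ± 87.5, 580 ± 67.8 and 253 ± 12.9 CPM in EV cells with pioglitazone and at 357 ± 11.7, 353 ± 18.9 and 160 ± 4.85 CPM in PPFP cells with pioglitazone, and for each of them the 2 EV groups overlapped. Ctsc had its highest mean in PPFP cells with pioglitazone (104 ± 10.1 CPM), Ctsb in PPFP cells with vehicle (1627 ± 45.1 CPM), and Ctsh its lowest mean in PPFP cells with pioglitazone (69.6 ± 1.18 CPM) with the other 3 groups overlapping. Over the 12 libraries, Pearson's r of log2 CPM was 0.957 between Ctsa and Ctsd, 0.955 between Ctsa and Cst3 and 0.946 between Ctsd and Cst3. Among the papain-like genes, r with Cst3 was -0.927 for Ctsc, -0.835 for Ctss, -0.399 for Ctsb and 0.634 for Ctsh. Libraries of one cell line share its level, so these values describe the separation of the cell lines too and are given without a p.

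Of 10482 genes, those with the profile most like that of Ctsd over the 12 libraries were Tcn2, encoding transcobalamin 2 (r = 0.997), and Ndst1 (0.993). For Ctsa they were Slit2 (0.994) and Dvl2 (0.993), and for Cst3 Hcfc1r1 and Ergic3 (0.994 each). They were Ext1 (0.988) and Senp2 (0.986) for Ctsc, Pxn (0.976) and Dlgap1 (0.967) for Ctss, and Rpusd3 (0.971) and Dtx2 (0.970) for Lgmn. The closest profiles were less alike for Ctsb, with Pik3r1 (0.961) and Hey2 (0.954), and for Ctsh, with Adamtsl3 (0.960) and Tmem176a (0.957).

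The other cathepsins and their inhibitors were taken from lists of their symbols. Of 15 further cathepsin symbols 10 had a row, and only Ctsl1, which encodes the thyroglobulin-cutting endopeptidase cathepsin L, passed the filter. It had 412, 586 and 511 CPM in EV libraries and 1081, 1101 and 1229 CPM in those of PPFP cells, 2.26-fold higher without overlap (log2 fold change 1.18, SE 0.136, adjusted p = 0.000403 by edgeR's quasi-likelihood test). Its ratio to Cst3 counts was 2.02 ± 0.377 in EV cells and 6.30 ± 0.489 in PPFP cells. Pioglitazone left it at 1160.4, 1133 and 1165 CPM in PPFP cells (log2 fold change 0.03, SE 0.060, adjusted p = 0.794). Of 12 inhibitor symbols 2 were tested without pioglitazone: Serpinb1a, a serpin that inhibits neutrophil serine proteases, was higher (log2 fold change 3.08, SE 0.200, adjusted p = 2.59e-05), and Cstb, the intracellular inhibitor cystatin B, was lower (log2 fold change -0.67, SE 0.112, adjusted p = 0.00221). In PPFP cells pioglitazone lowered Serpinb1a (log2 fold change -0.83, SE 0.117, adjusted p = 0.00618). Cstb did not pass the unpaired quasi-likelihood test there (log2 fold change -0.23, SE 0.068, adjusted p = 0.0730). With the replicate block both of these 2 inhibitors fell, where 23.9% of all genes fell.

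The remaining genes of the lysosome also moved both ways between PPFP and EV cells without pioglitazone. Their counts stand beside 22.0% of all genes higher and 23.1% lower, and a share near these is not particular to a list. Of 7 other lysosomal peptidases 1 was higher and 3 were lower, among them Dpp7 (log2 fold change -1.28, SE 0.111) and the tripeptidyl peptidase Tpp1 (-0.71, SE 0.135). Of 27 acid hydrolases 4 were higher and 12 lower, with a median of -0.0236. The lower ones included Gaa, the acid α-glucosidase (-1.17, SE 0.112), Neu1, the sialidase that cathepsin A protects (-1.14, SE 0.121), and Idua, the α-iduronidase (-1.11, SE 0.320). Of 14 lysosomal membrane genes 4 were higher, including Laptm4b (0.86, SE 0.123) and Cd68 (0.86, SE 0.297). The 3 lower ones included the cholesterol transporter Npc1 (-0.87, SE 0.106). Of 21 subunits of the vacuolar ATPase, the proton pump that acidifies the lysosome, 1 was higher and 7 lower, and 13 did not pass. Of 15 genes of sorting to the lysosome 4 were higher and 2 lower. Igf2r, a mannose 6-phosphate receptor that carries cathepsins there, was higher by 1.13 (SE 0.233). The other such receptor, M6pr, did not pass (0.11, SE 0.132, adjusted p = 0.546 by edgeR's quasi-likelihood test). Gnptg, a subunit of the enzyme that adds the mannose 6-phosphate tag, was at -0.70 (SE 0.119).

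Of 3 tested genes of the MiT/TFE family, transcription factors that bind E-boxes at lysosomal genes, only Tfeb passed. Its level was 37.6, 48.2 and 30.2 CPM in EV libraries and 17.4, 19.4 and 17.7 CPM in those of PPFP cells, without overlap (log2 fold change -1.09, SE 0.169, adjusted p = 0.00154 by edgeR's quasi-likelihood test). Of 12 genes of thyroglobulin uptake and hormone export 2 were higher and 4 lower, beside 22.0% and 23.1% of all genes. The uptake receptors Asgr1 (-3.49, SE 0.379) and Lrp2, or megalin (-1.06, SE 0.112), were lower. Asgr1 had 135 to 193 counts in EV libraries and 6 to 19 in PPFP libraries. It passed the filter on low counts through its EV libraries, so its place among the 4 lower genes depended on the same difference. The uptake receptor Cubn, or cubilin, was higher (0.74, adjusted p = 0.0145, named after its value was seen), and the thyroid hormone transporter Slc7a8 was higher (1.79, SE 0.201). Tg itself, the substrate, was at 8790 ± 2016 CPM in EV cells and at 11818 ± 294 CPM in PPFP cells (log2 fold change 0.43, SE 0.170, adjusted p = 0.0745).

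**Figure D5:**
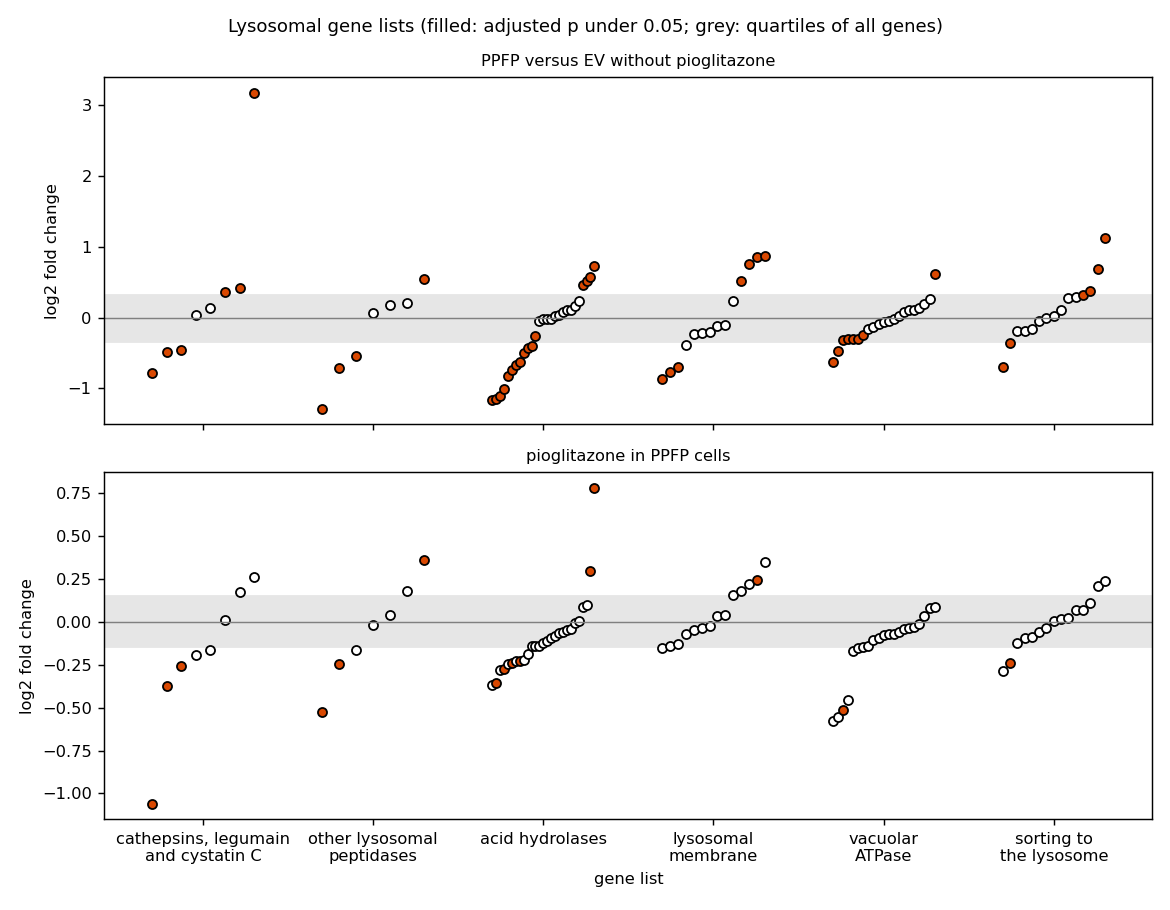
Log2 fold changes of all tested genes in 6 lysosomal lists, for PPFP against EV cells without pioglitazone (top) and for pioglitazone in PPFP cells (bottom), ordered by value within each list. Filled symbols have an adjusted p under 0.05, and the grey band spans the quartiles of all genes tested (-0.339 to 0.325 at the top, -0.149 to 0.148 at the bottom). In the top panel each of the 6 lists has filled symbols on both sides of 0, and Ctss, at 3.17, is the highest symbol.

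With pioglitazone in PPFP cells the counts of these lists stand beside 7.63% of all genes that rose and 7.13% that fell in the unpaired test. Of 27 acid hydrolases 2 rose and 4 fell. The lysosomal acid lipase Lipa rose (log2 fold change 0.78, SE 0.047, adjusted p = 0.000413 by edgeR's quasi-likelihood test), as did Psap, the precursor of the saposins (0.30, SE 0.037), and the β-galactosidase Glb1 fell (-0.36, SE 0.046). Of 7 other peptidases 1 rose, Scpep1 (0.36, SE 0.056), and 2 fell, Napsa (-0.52, SE 0.051) and Dpp7 (-0.24, SE 0.049). Lamp1 was the 1 of 14 membrane genes that rose (0.24, SE 0.044), Tcirg1 the 1 of 21 vacuolar ATPase subunits that fell (-0.52, SE 0.073), and Gga2 the 1 of 15 sorting genes that fell (-0.24, SE 0.055). None of the 3 MiT/TFE genes passed. With the replicate block, where 27.7% of all genes rose and 23.9% fell, 3 acid hydrolases rose and 15 fell, and the numbers that rose and fell were 2 and 3 for the peptidases, 4 and 2 for the membrane genes, 1 and 9 for the vacuolar ATPase, 3 and 3 for sorting, and 1 and 0 for the MiT/TFE genes. Of the 12 uptake and export genes 1 rose and 2 fell in the unpaired test, and 5 rose and 4 fell with the block. Tg fell from 11818 ± 294 to 8462 ± 147 CPM (log2 fold change -0.47, SE 0.038, adjusted p = 0.00092), and Lrp2 (-0.53, SE 0.122) and Cubn (-1.16, SE 0.177) fell with it, while Lrpap1, a chaperone of Lrp2, rose (0.22, SE 0.042).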

How the data were processed

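RNA libraries were made with a paired-end 50 nt protocol. The authors aligned the reads to rn4 with TopHat2 2.0.11 and counted them per gene with HTSeq 0.6.1p1 in intersection-strict mode, and the deposited values are raw counts by gene symbol, with replicates kept apart. In this mode a read is counted only if a single gene's annotated features cover it over its whole length. Strand use is not given in the sources used here. The ChIP-seq peak lists, in rn4, were not used here.

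Tests were run with edgeR 4.0.16 under R 4.3.3 (filterByExpr, TMM, quasi-likelihood test, Benjamini-Hochberg adjustment over all genes tested), on the 6 libraries of each pair of groups and, for the interaction, on all 12. The SE is the log2 fold change divided by the square root of F. DESeq2 1.42.0 gave an alternative. Promoter searches used Python 3.11.15, and matplotlib 3.10.9 drew the figures. The code was tested on simulated data.

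The genes and lists were chosen with earlier results of these data known. The rule was to name all 10 genes in every comparison, but Ctsz had no values here and Ctsk passed the filter in no comparison. From each list up to 3 called genes with the largest log2 fold change were eligible. The most similar profiles are the 2 highest Pearson r of log2 CPM with a prior count of 2.

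The biological coefficient of variation was between 0.126 and 0.156. Deviations from the group means of same-numbered libraries correlated at 0.743, 0.464 and 0.432 within PPFP cells and at 0.53, 0.729 and 0.774 within EV cells, so the numbers pair the libraries within a cell line. Libraries 2 and 3 of PPFP cells also correlated across numbers (0.535 and 0.35), so their pairing was less clear than that of number 1. The alternatives were the exact test, DESeq2, RLE factors, library size alone, no filter, at least 10 counts in every library, one fit of 12 libraries, the replicate block (for the lists added after seeing the data) and each library left out. A p measures only the spread between the 3 experiments of 1 transfected line per construct.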

Additional observations from a re-analysis of the deposited data

How the results depend on the processing

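Counts of called genes in the comparisons of PPFP with EV cells stayed within 1.5 times under every alternative, except that none passed the fold change of 2 with at least 10 counts in every library (0 in each), which removes Ctss from the test. For pioglitazone in PPFP cells the count of 3 became 1 with all 12 libraries in one fit, 7 with the replicate block and 1 to 4 with a library left out, and the count past the fold change of 2 became 0 in the fit of 12 and 0 to 1 with a library left out. For the interaction the count of 0 became 1 with DESeq2 and 6 with the block within each cell line. Between the cell lines the numbers do not pair the libraries (correlations of -0.249, 0.316 and -0.32 without and -0.246, 0.237 and -0.378 with pioglitazone), and the replicate block there moved the called genes of the whole table to 4050 and 4545, with Lgmn no longer passing with pioglitazone (0.308, adjusted p = 0.0556 by edgeR's quasi-likelihood test).

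Signs turned for the results below and no others, and the cause was not tested. Library size alone, which shifts the median of all genes to -0.0798, -0.125 and -0.0362 in the first 3 comparisons, gave -0.0391 for Ctsh without and -0.0647 for Ctsb with pioglitazone between cell lines, and -0.0412 for Ctsa and -0.0185 for Ctsl1 in treated PPFP cells. Ctsa there was also -3.86e-05 with DESeq2, -0.000116 with RLE factors and -0.00325 in the fit of 12. Cst3 passed there with DESeq2 (adjusted p = 0.00392), RLE factors (0.0480), library size alone (0.0213), the stricter filter (0.0480) and the replicate block (0.000465). With a library left out, log2 fold changes spanned -0.0138 to 0.0799 for Ctsh (cell lines, vehicle), -0.0486 to 0.226 for Ctsb (cell lines, pioglitazone), and -0.048 to 0.0283 for Ctsa and -0.022 to 0.0913 for Ctsl1 (PPFP cells). In EV cells they spanned -0.024 to 0.148 for Ctsa, -0.118 to 0.143 for Ctsb, -0.0562 to 0.00745 for Ctsc, -0.0506 to 0.102 for Ctsd, -0.0535 to 0.0458 for Ctsh, -0.0617 to 0.0417 for Lgmn, -0.0152 to 0.0408 for Cst3 and -0.166 to 0.299 for Ctsl1. In the interaction they spanned -0.163 to 0.0236 for Ctsa, -0.79 to 0.923 for Ctss and -0.283 to 0.189 for Ctsl1. Ctsd passed in treated PPFP cells without vehicle replicate 1 (adjusted p = 0.0423). Depth limits Ctss and Ctsk, at most 60 and 12 counts in a library.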
